A study of Mus musculus with 3 samples.

Results

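RNA of myeloid-derived suppressor cells (MDSCs) from mice lacking the long noncoding RNA lncGM1082 was set against RNA of MDSCs from wild type (WT) mice, with 1 library of each. Every row of the gene table with a mean of at least 1 FPKM (fragments corrected for transcript length and library size) over the 3 libraries of the series was compared, which kept 22202 of 57561 rows. Of these, 12041 carried an Ensembl identifier and 10161 a NONCODE identifier for long noncoding RNA. The lncGM1082-/- library (lncGM1082 KO) and the WT library came from C57BL/6 bone marrow, and both are labelled as MDSCs. The remaining library of the series came from lnc57Rik-/- marrow (lnc57Rik KO) and enters here through the mean that sets the filter and as values set beside the others. For all 3, femur marrow was cultured for 4 days in RPMI-1640 with GM-CSF and IL6, and total RNA was extracted with TRIzol. The growth protocol speaks of C57BL/6 and lnc57Rik KO animals and does not mention lncGM1082 KO animals. The wording of the design leaves unclear whether a genotype had more than 1 sample. The sources used here do not give how many animals went into a library, their age and sex, the preparation batches or how lncGM1082 was removed.

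MDSCs are immature myeloid cells, of neutrophil-like and monocyte-like form, that restrain T cells. They do so through enzymes that consume arginine or make nitric oxide, through prostaglandin E2, reactive oxygen, IL-10 and checkpoint ligands. GM-CSF with IL-6 drives marrow progenitors toward this state, and cultures with GM-CSF also yield neutrophils, macrophages and dendritic cells. Among the genes described below, heat shock proteins are chaperones that fold and refold proteins, and cells raise them under stress. MHC class I molecules display peptides to T and NK cells, and maturing dendritic cells switch on a set of homing and costimulatory genes.

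The libraries held 18280430 fragments in the lncGM1082 KO, 17593431 in the lnc57Rik KO and 18485090 in WT, as recovered from the steps between low FPKM values. A gene of 1000 exon bases therefore gained 0.0547 FPKM in the lncGM1082 KO library and 0.0541 in the WT library for each fragment. The 4 sex-specific genes compared, all Y-linked, had log2 folds between -0.11 and -0.0036. The listed sex-specific genes summed to 36.3 FPKM in the lncGM1082 KO, 37.8 in the lnc57Rik KO and 37.9 in the WT library. A difference has no replicate check, so no p-value is given. FPKM ratios carry 95% exact (Clopper-Pearson) intervals that cover counting error only and leave out how far mice, cultures and preparations vary. Changes are log2((lncGM1082 KO + 1)/(WT + 1)) of the FPKM, called log2 folds here, which understate the change of low genes. The words rose and fell are kept for rows with a log2 fold of at least 1 or at most -1.

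The targeted transcript could not be used to check the label. RefSeq lists Gm1082 among the synonyms of Arhgap33os, a noncoding gene antisense to Arhgap33 (GRCm38, chr7:30515122-30522193, plus strand). The NONCODE row at the same position rested on 3 fragments in the lncGM1082 KO library and 1 fragment in the WT library. That is 0.0620 FPKM in the lncGM1082 KO against 0.0204 in WT, a ratio of 3.03 with an interval from 0.244 to 159. The neighbouring gene Arhgap33, a GTPase activating protein, had 0.379 FPKM in the lncGM1082 KO and 0.537 in WT. The signalling adaptor Tyrobp, also on this stretch of chromosome 7, had 254 FPKM in the lncGM1082 KO and 296 in WT.

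Most rows lay close to 0. The median log2 fold over all rows was 0.01, and 89.3% of rows lay within 0.5 of 0. By the rule of size 192 rows rose (0.865% of those compared) and 210 fell (0.946%), 402 in all (1.81%). Of the 10260 protein-coding rows 16 rose (0.156%) and 16 fell (0.156%), 32 in all (0.312%), and 52.4% lay above 0. Ensembl rows past the rule numbered 232 (1.93%), and 200 of them were not protein coding: 125 were small RNA rows, of 600 compared, 48 were processed pseudogenes, of 814 compared, and 13 were antigen receptor segments, of 72 compared.

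Rows past the rule differed in how many fragments stood behind them. The 32 protein-coding rows had a median of 948 fragments over the lncGM1082 KO and WT libraries together, and the small RNA rows past the rule a median of 12. Their median exon lengths were 1975 and 114 bases in that order. Among all protein-coding rows the spread of log2 folds was widest in short genes, with an SD over genes of 0.489 below 750 exon bases and 0.172 from 6000 bases up. The median stayed between -0.03 and 0.06 in every class of exon length.

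**Figure D1:**
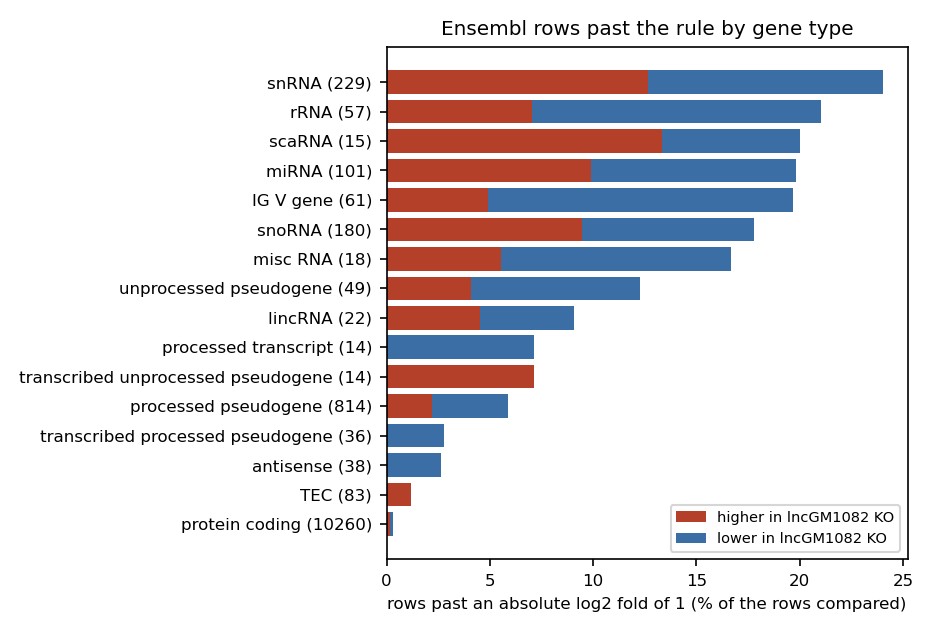
Share of Ensembl rows past an absolute log2 fold of 1 by annotated gene type, as a percentage of the rows compared (number in brackets). Red is higher and blue lower in the lncGM1082 KO library than in WT. Small nuclear RNA rows reached 24.02%, and protein-coding rows 0.312%.

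**Figure D2:**
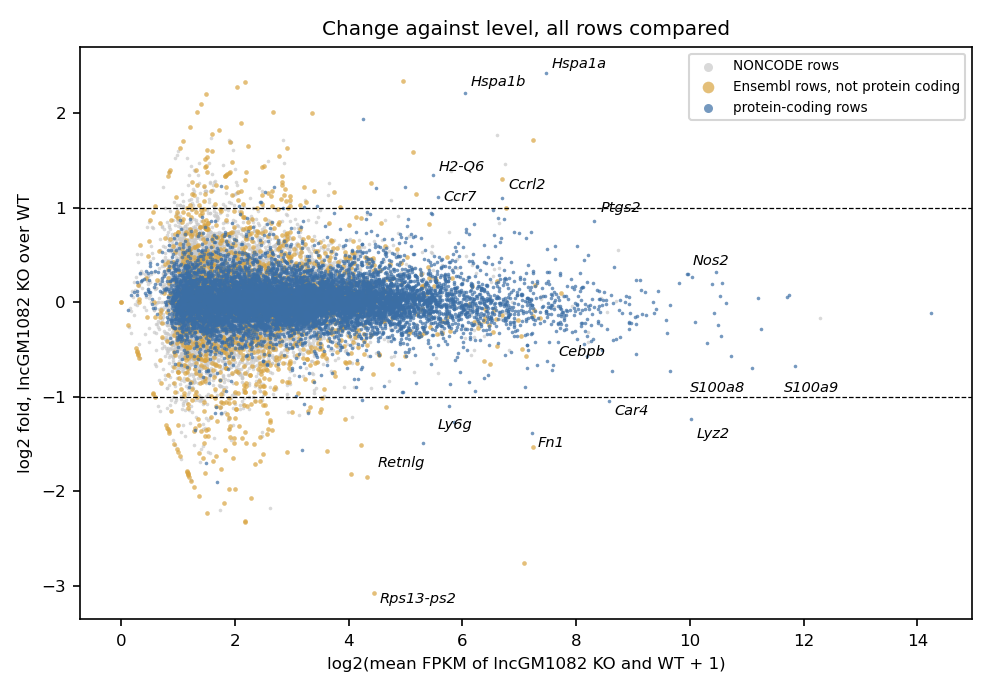
Log2 fold of lncGM1082 KO over WT (vertical axis) against the mean level of both libraries as log2(FPKM + 1) (horizontal axis), 1 point per row, coloured by kind of row. Dashed lines mark 1 and -1. The wide scatter at low levels is made of small RNA, pseudogene and NONCODE rows, and Hspa1a stands highest among protein-coding rows.

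Hspa1a and Hspa1b had the largest rise of any protein-coding row. These adjacent genes on the minus strand of chromosome 17 (Hspa1b at chr17:34956436-34959238 and Hspa1a at chr17:34969190-34972156, GRCm38) encode the stress-inducible HSP70. Hspa1a had 299 FPKM in the lncGM1082 KO, 23.1 in the lnc57Rik KO and 54.7 in the WT library. Hspa1b had 108 FPKM in the lncGM1082 KO, 11.4 in the lnc57Rik KO and 22.4 in the WT library. Both genes were thus highest in the lncGM1082 KO and lowest in the lnc57Rik KO library. The ratio of lncGM1082 KO to WT was 5.46 (5.25 to 5.68) for Hspa1a, on 16220 and 3002 fragments, and 4.80 (4.51 to 5.12) for Hspa1b. Their transcripts matched at 99.3% of 2197 aligned bases, with an identical run of 638 bases. The sources used here do not say how the counting divided shared reads, so the split between the pair is uncertain. Their promoters, the 250 bases before the gene start in RefSeq on GRCm38.p6, are shown because the pair moved together. They differ at 3 of 250 bases, and capitals mark GAANNTTC, a pair of inverted heat shock element units, which starts at -104 in both (Hspa1a at chr17:34972157-34972406 and Hspa1b at chr17:34959239-34959488, minus strand).
Hspa1a: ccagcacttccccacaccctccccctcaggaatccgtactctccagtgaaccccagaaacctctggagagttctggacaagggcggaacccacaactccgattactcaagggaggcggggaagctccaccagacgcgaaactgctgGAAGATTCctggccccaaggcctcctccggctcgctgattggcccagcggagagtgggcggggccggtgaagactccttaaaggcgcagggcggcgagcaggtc
Hspa1b: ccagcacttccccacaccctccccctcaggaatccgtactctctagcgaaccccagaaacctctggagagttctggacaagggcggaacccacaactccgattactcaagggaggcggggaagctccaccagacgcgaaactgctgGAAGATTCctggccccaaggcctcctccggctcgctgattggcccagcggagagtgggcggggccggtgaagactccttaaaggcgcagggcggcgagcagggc

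The same letters, which read alike on both strands, occur in 2199 of 32851 promoters of this length (6.69%). Of the 34 heat shock genes compared that have a promoter in the table, 8 held it. They were Hspa1a, Hspa1b, Dnaja1, Dnajb6, Fkbp4, Hspb6, Hspd1 and Hspe1. A match is a description of the letters only.

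Other members of the heat shock list moved less. Of 41 members compared, 2 rose, 0 fell and 27 lay above 0, with a median log2 fold of 0.10 against 0.01 over all rows, of which 52.2% lay above 0. Some cytosolic partners of HSP70 came next, while others lay nearer to 0, among them Hspa4 at -0.08, Bag1 at 0.05 and Dnaja2 at 0.17. Hsph1, the HSP110 exchange factor, had 38.7 FPKM in the lncGM1082 KO and 23.7 in WT, a log2 fold of 0.68. The HSP40 cochaperone Dnajb1 had 25.9 FPKM in the lncGM1082 KO and 16.5 in WT (0.62), and Dnaja1 27.3 in the lncGM1082 KO and 17.8 in WT (0.59). Hsp90aa1, the inducible HSP90, had 212 FPKM in the lncGM1082 KO and 143 in WT (0.56), while its constitutive counterpart Hsp90ab1 had 477 in the lncGM1082 KO and 456 in WT (0.06). The cochaperone Bag3 stood at 15.1 FPKM in the lncGM1082 KO and 11.6 in WT (0.35).

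The chaperones of organelles and the constitutive ones had folds on both sides of 0. Dnajb9, a cochaperone of the endoplasmic reticulum, had 20.6 FPKM in the lncGM1082 KO and 15.1 in WT (0.42), and Dnajc3, another, had a log2 fold of 0.22. Hspa8, the constitutive HSP70 of the cytosol, had a log2 fold of 0.11, Hspa5 of the endoplasmic reticulum 0.20, and Hspa9 of mitochondria 0.20. The mitochondrial chaperonins Hspd1 and Hspe1 had -0.11 and -0.07. Hsf1, the transcription factor of the heat shock response, had 7.16 FPKM in the lncGM1082 KO and 7.89 in WT (-0.12). The lowest member of the whole heat shock list, cytosolic members included, was Dnajb5 at -0.34. The testis paralogue Hspa1l, next to Hspa1a on the genome, stayed below a mean of 1 FPKM with 0.509 in the lncGM1082 KO and 0.153 in WT, and 85.5% of 1759 aligned bases matched Hspa1a.

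Rows around these genes were looked at after their values had been seen. Gm8696, a processed pseudogene 1723 bases past the end of Hspa1b on the same strand, rose to 6.11 FPKM in the lncGM1082 KO, against 1.26 in WT (log2 fold 1.65), on 43 and 9 fragments. It had 0.148 FPKM in the lnc57Rik KO library, so its order over the 3 libraries was that of Hspa1b. Its transcript of 385 bases aligned with that of Hspa1b over 24 bases, with an identical run of 11. Hspa1l, 546 bases from Hspa1a, was also higher in the lncGM1082 KO than in WT, but below a mean of 1 FPKM. Neighbours further out did not follow. Neu1, a lysosomal sialidase, had a log2 fold of 0.28, Lsm2, a splicing factor, -0.09, and Vars, the valyl-tRNA synthetase, -0.30. A NONCODE row on the strand opposite Hsph1, NONMMUG075132.2 (chr5:149619414-149635818), rose to 16.8 FPKM in the lncGM1082 KO, against 6.42 in WT (1.26). Without a stated strand setting its reads and those of Hsph1 cannot be told apart.

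**Figure D3:**
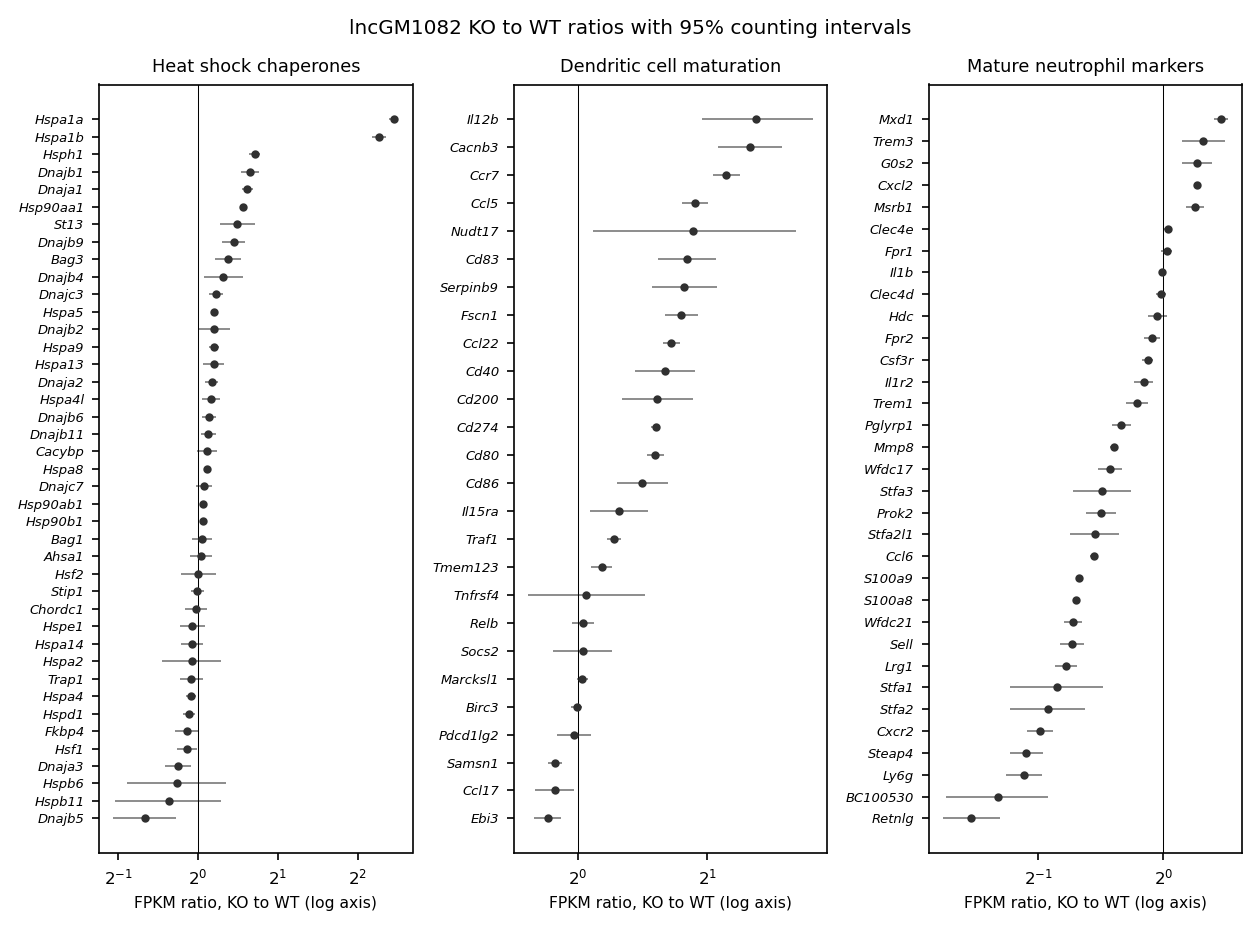
FPKM ratio of lncGM1082 KO to WT (log axis) for every compared member of 3 lists, with 95% counting intervals as bars. Hspa1a and Hspa1b stand apart from the other heat shock chaperones, Il12b, Cacnb3 and Ccr7 lead the dendritic cell maturation list, and Retnlg is lowest among mature neutrophil markers.

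Nonclassical class I genes formed the next group of large rises. Of 16 class I genes compared, 3 rose, 0 fell and 14 lay above 0, with a median log2 fold of 0.36. H2-Q6 had 63.4 FPKM in the lncGM1082 KO, 80.9 in the lnc57Rik KO and 24.2 in the WT library. H2-Q4 had 43.4 in the lncGM1082 KO, 54.5 in the lnc57Rik KO and 18.1 in WT, and H2-Q5, annotated as a polymorphic pseudogene, 49.0, 57.3 and 21.7 FPKM in the same order of libraries. All 3 were lowest in WT and highest in the lnc57Rik KO library. The log2 folds of lncGM1082 KO over WT were 1.35 for H2-Q6, 1.22 for H2-Q4 and 1.14 for H2-Q5, with ratios of 2.61 (2.42 to 2.82), 2.40 (2.21 to 2.60) and 2.26 (2.06 to 2.49). H2-Q7, the next gene of the cluster, stayed just within the rule at 0.93, with 57.2 FPKM in the lncGM1082 KO and 29.4 in WT.

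Away from the H2-Q4 to H2-Q7 block, class I folds were smaller. The T region genes H2-T10 and H2-T22 had log2 folds of 0.63 and 0.59. The classical molecules H2-K1 and H2-D1 had 325 and 460 FPKM in the lncGM1082 KO against 239 and 356 in WT, with log2 folds of 0.44 and 0.37. B2m, the shared light chain, had 1423 FPKM in the lncGM1082 KO and 1246 in WT (0.19). H2-Q10, the last gene of the Q block and known for secretion from liver, had 0.21. Cd1d1, which presents lipids, was the lowest member at -0.47. Class I peptide processing genes had 0 of 14 past the rule and a median of 0.08.

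The H2-Q genes are close copies. H2-Q6 matched H2-Q7 at 95.02% of 1025 aligned transcript bases with an identical run of 265 bases, and H2-Q4 at 92.7% of 1293 bases with a run of 118, so reads may be shared among them. The promoters of H2-Q4, H2-Q6 and H2-Q7, the protein-coding genes of the block, are shown because 2 of them rose and because class I promoters are known to share an interferon element. They are the 250 bases before each start on the plus strand of GRCm38.p6, H2-Q4 at chr17:35379367-35379616, H2-Q6 at chr17:35424600-35424849 and H2-Q7 at chr17:35438905-35439154. Capitals mark TTTCACTTC, the interferon element, in each, and in H2-Q6 and H2-Q7 also GGGATTCCC, an NF-kappa B site, upstream of it. Only these exact letters were searched. At the matching place H2-Q4 reads gggatttccc, with a further t, which the search did not count, so an NF-kappa B site in H2-Q4 is not excluded.
H2-Q4: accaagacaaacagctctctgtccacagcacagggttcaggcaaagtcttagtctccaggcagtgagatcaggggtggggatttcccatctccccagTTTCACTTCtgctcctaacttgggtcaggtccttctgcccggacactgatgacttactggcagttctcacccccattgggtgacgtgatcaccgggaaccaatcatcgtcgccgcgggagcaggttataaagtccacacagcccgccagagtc
H2-Q6: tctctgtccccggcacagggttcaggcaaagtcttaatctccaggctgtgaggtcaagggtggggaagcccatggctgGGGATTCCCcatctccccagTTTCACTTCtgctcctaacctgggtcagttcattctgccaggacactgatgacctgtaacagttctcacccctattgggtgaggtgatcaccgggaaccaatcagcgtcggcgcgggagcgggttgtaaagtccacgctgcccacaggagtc
H2-Q7: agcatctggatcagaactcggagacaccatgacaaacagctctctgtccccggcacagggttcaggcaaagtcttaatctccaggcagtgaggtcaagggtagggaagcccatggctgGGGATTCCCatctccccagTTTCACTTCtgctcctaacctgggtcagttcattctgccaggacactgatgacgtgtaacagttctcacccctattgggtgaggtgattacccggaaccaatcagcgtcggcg

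On either strand, TTTCACTTC occurs in 132 of 32851 promoters (0.402%) and in 7 of the 12 class I genes with a promoter in the table, namely H2-D1, H2-K1, H2-M3, H2-Q4, H2-Q6, H2-Q7 and H2-Q10. GGGATTCCC on either strand occurs in 99 promoters (0.301%), among them H2-D1, H2-K1, H2-Q6 and H2-Q7. These 4 hold both motifs in exactly these letters, and of them H2-Q6 rose and the others stayed within the rule. The 43 interferon response genes, described here because of that element, had 0 past the rule, 41 above 0 and a median of 0.18. Their largest folds were Ifi44 at 0.53 and Oasl1 at 0.51. Isg15 had 131 FPKM in the lncGM1082 KO and 105 in WT (0.32).

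Genes of dendritic cell maturation contributed 3 further rises. Of 26 members compared, 3 rose, 0 fell and 21 lay above 0, with a median of 0.40. In bulk RNA a difference in the number of cells of a type and a difference in RNA per cell cannot be told apart. Ccr7, the lymph node homing receptor, had 64.2 FPKM in the lncGM1082 KO, 74.3 in the lnc57Rik KO and 29.0 in the WT library (log2 fold of lncGM1082 KO over WT 1.12). Cacnb3, a calcium channel subunit, had 6.45 in the lncGM1082 KO, 12.2 in the lnc57Rik KO and 2.58 in WT (1.06). Il12b, the p40 chain of IL-12 and IL-23, had 4.64 in the lncGM1082 KO, 7.89 in the lnc57Rik KO and 1.79 in WT (1.02). Each of these was lowest in WT and highest in the lnc57Rik KO library. B and T cells also express Ccr7, and B cell markers summed to 30.1 FPKM in the lncGM1082 KO, 315 in the lnc57Rik KO and 18.7 in the WT library. The part of lymphoid cells in the Ccr7 value was not tested.

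Further members had folds short of the rule. The chemokines Ccl5 and Ccl22 had 128 and 115 FPKM in the lncGM1082 KO against 68.4 and 70.1 in WT, with log2 folds of 0.89 and 0.71. Fscn1, the actin bundler of dendrites, had 0.76 and the surface marker Cd83 0.74. The costimulatory genes Cd80, Cd40 and Cd86 had 0.59, 0.56 and 0.43. At the low end Ccl17 had -0.18, Ebi3, a cytokine subunit, -0.23, and the NF-kappa B subunit Relb 0.04. Genes that define dendritic cells by lineage did not share this median. The 14 subset identity genes had 0 past the rule, 7 above 0 and a median of -0.04. Mgl2 and Naaa had the largest absolute folds of this list, at -0.82 and -0.70, followed by Flt3 at 0.56 and Itgax at -0.55. Only 12 genes of this list reached a mean of 1 FPKM over the lncGM1082 KO and WT libraries. Flt3 and Zbtb46 did not, and passed the filter through the lnc57Rik KO library. The defining genes were low, with Flt3 at 1.18 FPKM in the lncGM1082 KO and 0.482 in WT, Zbtb46 at 1.09 in the lncGM1082 KO and 0.808 in WT, and Clec9a and Xcr1 below 1 FPKM in each library but for Clec9a at 1.05 in the lnc57Rik KO. Class II genes and their transactivator had 0 of 12 past the rule, 9 below 0 and a median of -0.18. Among them Cd74, the invariant chain, had 359 FPKM in the lncGM1082 KO and 472 in WT (-0.39), and Ciita 2.60 in the lncGM1082 KO and 1.91 in WT (0.31).

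**Figure D4:**
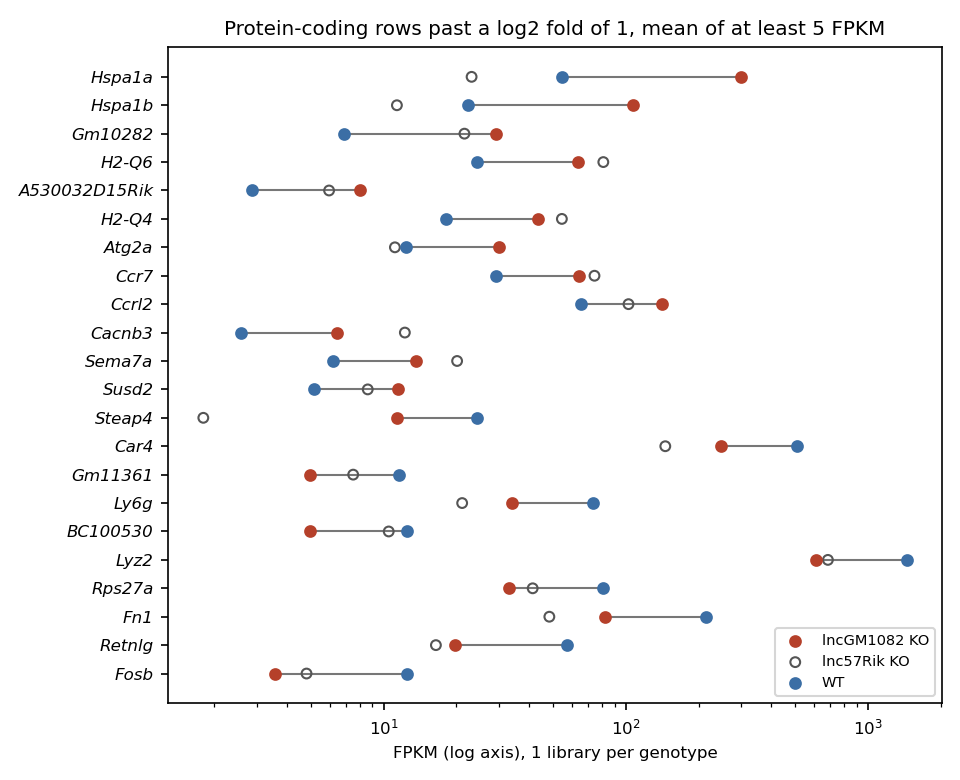
FPKM (log axis) of the 22 protein-coding rows past an absolute log2 fold of 1 with a mean of at least 5 FPKM. Red points are the lncGM1082 KO, open points the lnc57Rik KO and blue points the WT library, and a line joins lncGM1082 KO and WT. The top 12 rows were higher and the bottom 10 lower in the lncGM1082 KO than in WT.

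Other protein-coding rises were spread over functions. Ccrl2, an atypical receptor that binds chemerin, had 141 FPKM in the lncGM1082 KO and 65.3 in WT (1.10), and with Ccr7 made up the 2 of 18 chemokine receptors that rose. Atg2a, a lipid transfer protein of the growing autophagosome, had 30.1 FPKM in the lncGM1082 KO, 11.1 in the lnc57Rik KO and 12.4 in the WT library (1.21). Its ratio to WT was 2.42 (2.29 to 2.56), and it was the only 1 of 34 autophagy genes to rise. The list had 27 members above 0 and a median of 0.11. The semaphorin Sema7a (13.6 FPKM in the lncGM1082 KO, 6.18 in WT) had a log2 fold of 1.02, and the sushi domain gene Susd2 (11.4 in the lncGM1082 KO, 5.18 in WT) 1.01. Tight junction gene Cldn1, with a mean below 5 FPKM, rose to 6.99 FPKM in the lncGM1082 KO, against 2.57 in WT (1.16). Just outside the rule lay Tlr9, the receptor for CpG DNA, at 0.9996, with 8.59 FPKM in the lncGM1082 KO and 3.80 in WT. The remaining rises were Gm10282, A530032D15Rik, Srp54 of the signal recognition particle and the beta-defensin Defb40, the last on 45 and 18 fragments.

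Genes by which MDSCs suppress T cells showed both directions and none past the rule. Of 26 effectors compared, 0 were past the rule, 11 lay above 0, and the median was -0.04. Ptgs2 and Ptges, enzymes of prostaglandin E2 synthesis, had the largest positive folds among the 26. Ptgs2, the inducible cyclooxygenase, had 411 FPKM in the lncGM1082 KO, 258 in the lnc57Rik KO and 227 in the WT library (0.86). Ptges, the synthase downstream of it, had 93.2 in the lncGM1082 KO, 51.6 in the lnc57Rik KO and 52.1 in WT (0.83). Both stood highest in the lncGM1082 KO library. The next highest of the 19 prostaglandin and leukotriene genes was Alox15, a lipoxygenase, at 0.42, and the list had 0 past the rule and a median of -0.09. The other cyclooxygenase, Ptgs1, had -0.15, and the synthases Ptges2 and Ptges3 had -0.29 and 0.07. Il10 had 82.9 FPKM in the lncGM1082 KO and 49.0 in WT (0.75), and Cd274, the checkpoint ligand PD-L1, 237 in the lncGM1082 KO and 156 in WT (0.60).

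The arginine enzymes lay nearer to 0. Nos2, the inducible nitric oxide synthase, had 1087 FPKM in the lncGM1082 KO, 426 in the lnc57Rik KO and 886 in the WT library (0.29). Arg1, arginase 1, had 569 in the lncGM1082 KO, 262 in the lnc57Rik KO and 626 in WT (-0.14). Their ratios of lncGM1082 KO to WT were 1.23 (1.21 to 1.24) and 0.910 (0.894 to 0.926). Cybb, the NADPH oxidase subunit, had -0.20, Tgfb1 -0.17 and Stat3 0.13. At the low end stood Mmp9, a gelatinase, at -0.90, and the S100 alarmins.

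Cytokines and chemokines of inflammation had 1 member past the rule. Of 28 cytokines compared, Il12b alone rose, 18 lay above 0 and the median was 0.20. Il12a had 73.0 FPKM in the lncGM1082 KO and 47.0 in WT (0.63), while Tnf had a log2 fold of 0.31, Il6 0.21 and Il1b -0.01. Of 7 CXC chemokines 0 were past the rule and 6 lay above 0, with a median of 0.27. Cxcl1, a neutrophil attractant, had 138 FPKM in the lncGM1082 KO and 74.1 in WT (0.89), and Cxcl2 1142 in the lncGM1082 KO and 949 in WT (0.27). The largest gain of any row in FPKM was 312, in the chemokine Ccl3, with 1571 FPKM in the lncGM1082 KO and 1259 in WT (0.32). Hspa1a came second with a gain of 244. Further large gains were in Hmox1, which degrades heme, with 1617 FPKM in the lncGM1082 KO and 1408 in WT, and in Cd14, a coreceptor for lipopolysaccharide, with 1108 in the lncGM1082 KO and 899 in WT.

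Markers of mature neutrophils had the lowest median of the 50 lists. Of 33 compared, 0 rose, 4 fell and 26 lay below 0, with a median log2 fold of -0.42, and 47.9% of Ensembl rows lay below 0. Retnlg, a resistin-like protein, had 19.8 FPKM in the lncGM1082 KO, 16.5 in the lnc57Rik KO and 57.5 in the WT library (-1.49). Ly6g, the surface antigen of mouse neutrophils, had 33.9 in the lncGM1082 KO, 21.1 in the lnc57Rik KO and 73.4 in WT (-1.09). Steap4, a metalloreductase, had 11.4 in the lncGM1082 KO, 1.80 in the lnc57Rik KO and 24.3 in WT (-1.03). These 3 were highest in WT and lowest in the lnc57Rik KO library. BC100530, a stefin A-like protease inhibitor with close copies, had 4.99 FPKM in the lncGM1082 KO, 10.5 in the lnc57Rik KO and 12.5 in WT (-1.17). The chemokine receptor Cxcr2 stayed within the rule at -0.95, with 20.1 FPKM in the lncGM1082 KO and 39.8 in WT. Mxd1, a partner of Max that opposes Myc, was the highest member at 0.45.

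The alarmins S100a9 and S100a8 were among the 3 largest losses in FPKM. S100a9 had 2833 FPKM in the lncGM1082 KO, 4509 in the lnc57Rik KO and 4521 in the WT library (-0.67). S100a8 had 1672 in the lncGM1082 KO, 2610 in the lnc57Rik KO and 2718 in WT (-0.70). Here the lncGM1082 KO library stood apart from the other two. The other was Fth1, the ferritin heavy chain, with 18697 FPKM in the lncGM1082 KO and 20190 in WT (-0.11).

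The median folds of granule genes differed by stage. Secondary and tertiary granule genes, made late in neutrophil development, had 0 of 27 higher, 1 lower and 22 below 0, with a median of -0.21, and their FPKM summed to 8367 in the lncGM1082 KO and 11236 in WT. Lyz2, lysozyme, which macrophages make too, was the member that fell, with 614 FPKM in the lncGM1082 KO, 684 in the lnc57Rik KO and 1449.5 in the WT library (-1.24). Mmp9, the chitinase-like Chil3, lactoferrin (Ltf), Ngp and cathelicidin (Camp) had log2 folds of -0.90, -0.73, -0.71, -0.57 and -0.51, and lipocalin 2 (Lcn2) -0.35. Primary granule genes, made early, had 0 of 16 past the rule, 11 above 0 and a median of 0.13, with myeloperoxidase (Mpo) at 0.19, elastase (Elane) at 0.12 and cathepsin G (Ctsg) at 0.34. Their summed FPKM was nonetheless slightly lower in the lncGM1082 KO, at 2669 against 2752 in WT. Hp, at -0.21, stood in both lists. The primary granule list also held Calr at 0.14, of the endoplasmic reticulum list, and Gstm1 at 0.13, of the antioxidant list. Its median is thus not that of granule proteins alone. Cebpe, the transcription factor needed for secondary granules, had 44.3 FPKM in the lncGM1082 KO and 40.5 in WT (0.13).

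Among transcription factors, Cebpb, a driver of emergency granulopoiesis and of MDSC function, had 148 FPKM in the lncGM1082 KO, 150 in the lnc57Rik KO and 236 in the WT library (-0.67). The list of C/EBP and other myeloid factors had 0 of 31 past the rule, 15 above 0 and a median of -0.01. Cebpa had -0.11, Cebpd -0.14, Spi1 -0.01, and Irf8, a factor of monocytes and dendritic cells, 0.39. Immediate early genes went both ways. Of 31, only Fosb was past the rule, and 15 lay above 0, with a median of -0.03. Fosb had 3.58 FPKM in the lncGM1082 KO, 4.81 in the lnc57Rik KO and 12.5 in the WT library (-1.56). The zinc finger gene Egr1 had -0.69, Myc -0.71 and Fos -0.58, while Gadd45b had 0.75, Nr4a3 0.61 and Jun 0.30. The WDR5 and H3K4 methyltransferase list had 0 of 16 past the rule and a median of -0.01.

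Outside these groups, Fn1, fibronectin, fell. It had 82.2 FPKM in the lncGM1082 KO, 48.4 in the lnc57Rik KO and 216 in the WT library (-1.38). Its ratio of lncGM1082 KO to WT was 0.381 (0.375 to 0.388). Car4, a membrane carbonic anhydrase, had 247 FPKM in the lncGM1082 KO, 146 in the lnc57Rik KO and 511 in WT (-1.04), and the ratio was 0.484 (0.472 to 0.497). Both were highest in WT. Lpl, lipoprotein lipase, with 19.996 FPKM in the lncGM1082 KO and 39.7 in WT, and Nppc, C-type natriuretic peptide, with 4.62 in the lncGM1082 KO and 10.2 in WT, lay just outside the rule at -0.95 and -0.99. Ch25h, which makes 25-hydroxycholesterol, fell to 0.932 FPKM in the lncGM1082 KO, against 3.37 in WT (-1.18), and Rnase2a, an eosinophil-associated ribonuclease with close copies, to 0.317 in the lncGM1082 KO, against 3.29 in WT (-1.70), on 4 and 42 fragments. The kallikrein Klk1b11 and the predicted genes Gm11361, Gm47283 and Gm10130 also fell, with log2 folds of -1.18, -1.08, -1.11 and -1.91.

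Ribosomal protein genes lay below 0 almost throughout. Of 80 compared, 0 rose, 1 fell and 75 lay below 0, with a median of -0.23, and their FPKM summed to 10298 in the lncGM1082 KO, 11858 in the lnc57Rik KO and 12365 in the WT library. Rps27a, made as a fusion with ubiquitin, was the one that fell, with 33.0 FPKM in the lncGM1082 KO, 41.3 in the lnc57Rik KO and 80.9 in WT (-1.27). Rpl7a, Rpl38 and Rpl30 had -0.86, -0.84 and -0.70. Rpl36al was the highest at 0.88, with 2.02 FPKM in the lncGM1082 KO and 0.640 in WT. These genes have many processed copies in the genome. The lowest fold of any named row was in such a copy, Rps13-ps2, which had 3.62 FPKM in the lncGM1082 KO, 10.2 in the lnc57Rik KO and 38.1 in the WT library (-3.08). It matched Rps13 at all of 431 aligned bases, and Rps13 itself had 61.8 FPKM in the lncGM1082 KO and 65.3 in WT (-0.08). Rps18-ps3 matched Rps18 at 99.3% of 456 bases and had 2.76 FPKM in the lncGM1082 KO and 10.3 in WT (-1.59), where Rps18 had -0.33. Reads of such copies and of their parents may not be separable. Over the 69 rows named as ribosomal protein pseudogenes, 0 rose, 3 fell, 41 lay below 0 and the median was -0.17.

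Metabolic and stress lists had medians between -0.22 and 0.22. All 24 cholesterol synthesis genes lay below 0, with 0 past the rule and a median of -0.22, and Hmgcs1, which commits acetyl groups to the pathway, was lowest with 42.9 FPKM in the lncGM1082 KO and 54.5 in WT (-0.34). Nuclear genes of oxidative phosphorylation had 0 of 46 past the rule, 33 below 0 and a median of -0.10. Integrated stress response genes had 0 of 21 past the rule, 20 above 0 and a median of 0.22. Ppp1r15a, which restores translation by directing dephosphorylation of eIF2 alpha, had 24.5 FPKM in the lncGM1082 KO and 12.8 in WT (0.88), and Ddit4, an inhibitor of mTORC1, 149 in the lncGM1082 KO and 88.7 in WT (0.74). The transcription factors Atf4 and Ddit3 had 0.25 and 0.40. Chaperones of the endoplasmic reticulum and XBP1 targets had 0 of 23 past the rule, 20 above 0 and a median of 0.12.

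Replication-dependent histone genes lay mostly above 0, 42 of 47 in all, with 0 past the rule and a median log2 fold of 0.42. Their FPKM summed to 3237 in the lncGM1082 KO, 7005 in the lnc57Rik KO and 2546 in the WT library. Hist1h4n had 122 FPKM in the lncGM1082 KO and 61.3 in WT (0.98), and Hist1h2ag 42.1 in the lncGM1082 KO and 22.3 in WT (0.89). Hist1h4m went the other way with 50.2 FPKM in the lncGM1082 KO and 97.4 in WT (-0.94). These short genes are near copies of each other. The 41 cell cycle genes had 0 past the rule, 17 above 0 and a median of -0.03, with the proliferation marker Mki67 at 24.1 FPKM in the lncGM1082 KO and 25.3 in WT.

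Markers of other cell types were read across the 2 libraries. Monocyte and macrophage markers had 0 of 31 higher, 1 lower (Fn1) and 13 above 0, with a median of -0.06. Their summed FPKM was 6037 in the lncGM1082 KO and 5950 in WT. Csf1r had -0.18, Ly6c2 -0.24 and Ccr2 -0.75, while Cd68 had 0.33, Adgre1 0.20 and the complement gene C1qb 0.74. The summed level of mature neutrophil markers was 10538 FPKM in the lncGM1082 KO and 13882 in WT. S100a9 alone made up 2833 of this in the lncGM1082 KO and 4521 in WT, and S100a8 1672 and 2718. Of the 33 markers 26 lay below 0, but the abundant Fpr1, Clec4d, Clec4e and Il1b had log2 folds between -0.02 and 0.03. Eosinophil markers had 11 of 11 above 0, 0 past the rule and a median of 0.27, with sums of 387 FPKM in the lncGM1082 KO and 333 in WT. Of these markers 10 reached a mean of 1 FPKM over the lncGM1082 KO and WT libraries. Basophil and mast cell markers had 8 of 12 above 0 and sums of 128 FPKM in the lncGM1082 KO and 118 in WT. The part these lists play in the folds of other genes was not tested.

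Defining markers of lymphoid, red and vessel cells were low, while some less specific members were not. Of 17 B cell markers compared, 16 lay above 0 and 0 were past the rule, with a median of 0.32, but only 11 reached a mean of 1 FPKM over the lncGM1082 KO and WT libraries, so the rest passed the filter through the lnc57Rik KO library. Pax5, a B lineage transcription factor, had 0.303 FPKM in the lncGM1082 KO and 0.122 in WT. The 61 immunoglobulin V gene rows compared went the other way, with a median of -0.15, 3 higher and 9 lower. That is 19.67% past the rule, against 1.93% of Ensembl rows. Of 21 T and NK cell genes 5 were compared and 0 were past the rule, with sums of 45.6 FPKM in the lncGM1082 KO and 33.4 in WT. Only 4 reached a mean of 1 FPKM over these libraries. Among the 21, Cd3g, Trbc2 and Klrb1c were listed at 0 in the lncGM1082 KO and at or below 0.547 FPKM in WT, and Cd3e was at 0.0536 in the lncGM1082 KO and 0.0530 in WT. The interleukin receptor chain Il7r, by contrast, had 23.3 FPKM in the lncGM1082 KO and 15.6 in WT (0.55). Erythroid markers had 3 of 3 compared above 0, 0 past the rule and a median of 0.35, with the transferrin receptor Tfrc at 30.2 FPKM in the lncGM1082 KO and 26.3 in WT and Car2, a carbonic anhydrase, at 8.67 in the lncGM1082 KO and 6.41 in WT. Alas2, the remaining erythroid marker compared, had a log2 fold of 0.35. The erythroid globin genes Hba-a1 and Hbb-bs stayed below 1 FPKM in both libraries. Stromal and endothelial markers had 2 of 3 compared above 0 and 0 past the rule. Pecam1, which leukocytes share with endothelium, had 20.6 FPKM in the lncGM1082 KO and 18.9 in WT, and Cdh5, an endothelial cadherin, had 0.195 in the lncGM1082 KO and 0.438 in WT. Rps28, a ribosomal protein gene that cells need, was listed at 0 in both, so a listed 0 may not be a measured absence.

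Lists of receptors, signalling and metabolism showed little shift. Receptors, STATs and feedback genes of GM-CSF and IL-6, the cytokines of the culture, had 0 of 29 past the rule and a median of 0.01. NF-kappa B subunits, inhibitors and feedback genes had 0 of 26 past the rule and 23 above 0, but a median of 0.09 and no fold over 0.56. Medians were also within 0.1 of 0 for toll-like receptors and adaptors, inflammasome, glycolysis and hypoxia, antioxidant, lipid uptake and mitochondrially encoded genes, each with 0 past the rule. The 11 CC chemokines had a larger median, of 0.20, with 0 past the rule and 8 above 0. Stem and progenitor markers had 0 of 10 past the rule and 8 above 0, and summed to 434 FPKM in the lncGM1082 KO and 315 in WT, of which Procr, the protein C receptor, made up 310 in the lncGM1082 KO and 205 in WT.

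**Figure D5:**
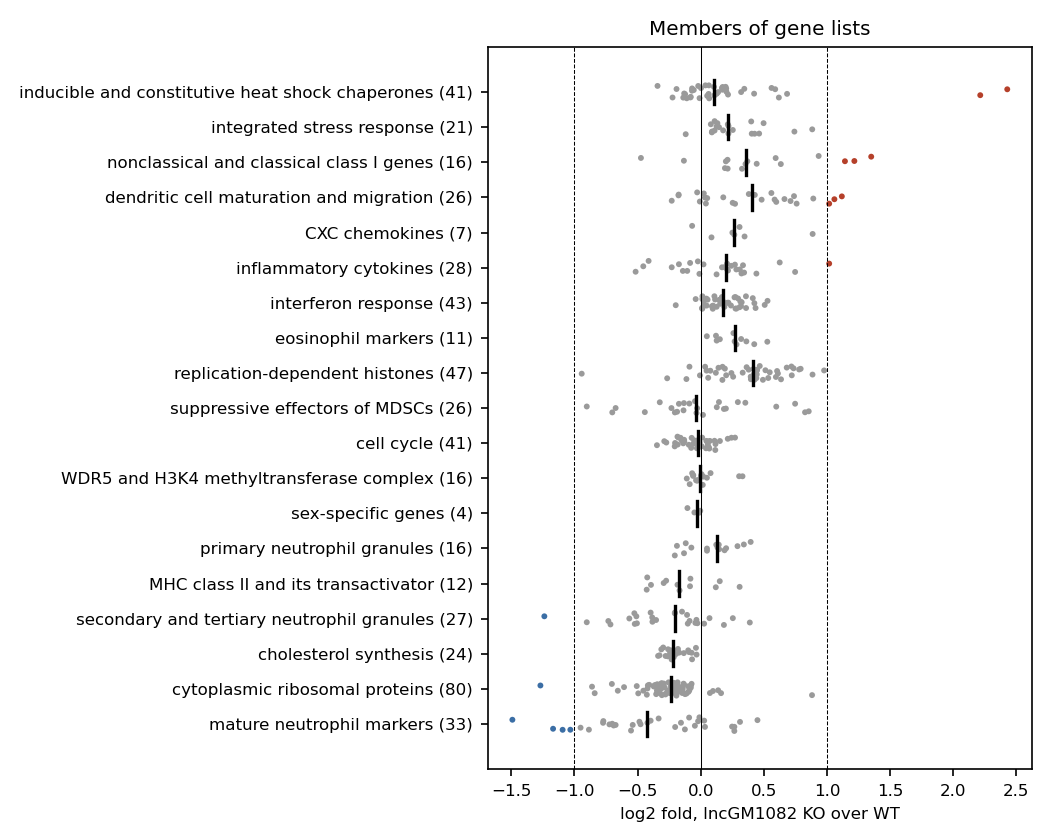
Log2 fold of lncGM1082 KO over WT for the members of 19 of the 50 gene lists, 1 point per gene, with the number compared in brackets and a black bar at the median. Red points rose and blue points fell by the rule of size, shown by the dashed lines. Histones, class I and dendritic cell maturation genes lie to the right, and mature neutrophil markers, ribosomal proteins and cholesterol synthesis to the left.

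NONCODE rows passed the rule at a rate close to that of all rows, with 86 of 10161 higher (0.846%) and 84 lower (0.827%), 170 in all (1.67%). Among those with a mean of at least 5 FPKM, NONMMUG016749.2 (chr16:57391107-57391681, plus strand) had the largest rise, with 150 FPKM in the lncGM1082 KO, 235 in the lnc57Rik KO and 43.3 in the WT library (1.77). It lies inside the span of Filip1l on the same strand and of Cmss1 on the opposite strand, and Filip1l itself had 30.1 FPKM in the lncGM1082 KO and 28.2 in WT (0.09). NONMMUG018197.2 (chr17:35480139-35480728, plus strand), 5576 bases from H2-Q10, rose to 157 FPKM in the lncGM1082 KO, against 56.2 in WT (1.46), and had 150 in the lnc57Rik KO library. H2-Q4, H2-Q5, H2-Q6, H2-Q7 and this row were thus lowest in WT, while H2-Q10 was lowest in the lnc57Rik KO library at 4.43 FPKM, against 4.69 in WT. NONMMUG073631.1 and NONMMUG032571.2 rose to 10.04 and 9.70 FPKM in the lncGM1082 KO, against 2.36 and 2.85 in WT, and the second lies 20466 bases from Tlr1.

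Among NONCODE falls, NONMMUG096618.1 on the Y chromosome fell to 1.24 FPKM in the lncGM1082 KO, against 9.11 in WT (-2.18), and NONMMUG087042.1, opposite Mid1 on the X chromosome, to 2.03 in the lncGM1082 KO, against 7.08 in WT (-1.42). NONMMUG075260.1 lies within Ptpn12 on the same strand and fell to 9.07 FPKM in the lncGM1082 KO, against 22.4 in WT (-1.22). Ptpn12 itself, a tyrosine phosphatase, had 55.2 FPKM in the lncGM1082 KO and 55.9 in WT. NONMMUG076116.1 lies within Scarb1, the receptor for high-density lipoprotein, and fell to 4.34 FPKM in the lncGM1082 KO, against 11.2 in WT (-1.19), where Scarb1 had 9.55 in the lncGM1082 KO and 12.2 in WT.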

How the data were processed

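RNA-seq values were analysed as deposited: 1 table in which the authors give FPKM per gene for 3 libraries, 1 per genotype. The submitters' processing notes name Bowtie 0.12.2 and mm9 and give neither a role. The sources used here do not give the counting software, its strand setting or what it did with multiply mapped reads. Gene positions follow GRCm38, since 19553 of 20607 Ensembl rows found in GENCODE M21 had the identical position there, and coordinates are given on it.

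From these values log2 folds with a pseudocount of 1 were computed for rows with a mean of at least 1 FPKM over the 3 libraries, with a rule of size of 1 and no test. A row can thus pass the filter through the lnc57Rik KO library. Fragment totals were recovered with GENCODE M21 exon lengths. Values below 20 fragments were whole within 0.05 fragments for 99.9% to 100% of values of genes with 1 transcript and for 97.0% to 97.2% with several, by library. Ratios have 95% exact binomial intervals. The 50 gene lists and the members of the comparison were chosen with earlier results of these data known. Named genes were the targeted row, the 15 largest folds in each direction at a mean of at least 5 FPKM, up to 5 members of lists with 2 or more members past the rule or a median 0.2 or more from that of all rows, a fixed set of MDSC genes, the 6 largest gains and losses in FPKM, the heat shock list and 4 NONCODE rows in each direction. The largest folds skip clone names, small RNAs and antigen receptor segments. Genes named outside the rule were chosen after their values were seen. Promoters are from RefSeq, GRCm38.p6, cut to the 250 bases before the start. The computation used Python 3.11.15, pandas 2.3.3, scipy 1.17.1 and Biopython 1.88. The rule of size was also run on simulated data. Such a run cannot show how far mice, cultures and preparations vary, so no error rate of the rule is drawn from it.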

Additional observations from a re-analysis of the deposited data

How the results depend on the processing

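Counts of rows past the rule depended on the settings. For rows that rose and rows that fell they were 570 and 520 with a pseudocount of 0.1, 23 and 18 with a pseudocount of 5, 57 and 40 at a minimum mean of 5 FPKM, 914 and 765 with a threshold of 1.5-fold, 106 and 126 for Ensembl rows and 16 and 16 for protein-coding rows. For protein-coding rows the counts were 54 and 36 with a pseudocount of 0.1, 8 and 7 with a pseudocount of 5 and 145 and 87 with a threshold of 1.5-fold, and 10 fell at a minimum mean of 5 FPKM. The settings for protein-coding rows were chosen after seeing the data. Of 50 lists, 14 had a median at least 0.2 from that of all rows, 7 with a pseudocount of 5 and 9 without the filter. The remaining settings, which were the filter on lncGM1082 KO and WT alone, median ratio scaling and upper quartile scaling, left these counts within 1.5 times. Over all settings the list median lay between 0.27 and 0.44 for class I genes, 0.25 and 0.54 for dendritic cell maturation, -0.44 and -0.41 for mature neutrophil markers, -0.25 and -0.22 for ribosomal proteins and 0.14 and 0.54 for B cell markers. With a pseudocount of 5, 14 named rows no longer passed the rule, among them Cacnb3, Sema7a, Il12b, Susd2, Steap4 and BC100530, since a larger pseudocount shrinks the folds of low rows, and Susd2 also missed it under both scalings at 0.994 and 0.998. No named row past the rule changed direction, but the settings run here could not have turned one. A pseudocount or a filter leaves the sign of a fold unchanged, and the scalings divided by 1.01 at most.

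No paired analysis was possible because each genotype has 1 library. Leaving out a library was not possible for the same reason. At this depth a fragment weighs most in short genes, so folds of small RNA, pseudogene and other short rows are the least precise. The gene lists, the filter and the intervals do not show how far cultures of 1 genotype differ.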
